A study of Homo sapiens with 14 samples.

Results

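The 30 genes described here encode proteins that the liver secretes into blood plasma, with 2 hepatocyte genes beside them, the transporter gene SLC22A10 and the urea cycle gene CPS1. Their rows were taken from the 4 deposited count tables by gene name, 30 genes among 57904 features in the knockdown table, 57905 in each dTAG table and 20243 in the R219S table. The members to describe were chosen by their counts, 20 or more summed over the libraries of a table, and the list itself was drawn up with earlier results of these data known. Those sums are therefore a description and carry no test.

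The cells are 22Rv1, an established human prostate cancer line, profiled by RNA sequencing in 14 libraries that make 7 groups of 2. Cells given knockdown lentivirus against FOXA1 (shFOXA1, genotype given as wild type with FOXA1 knockdown) were compared with cells given control lentivirus (shCtrl, genotype wild type; their titles name 22Rv2 while the cell line label says 22Rv1). Cells whose genotype label adds FOXA1_dTAG, a FOXA1 fusion that a small molecule marks for degradation, were taken at 0 h, 1 h and 24 h. R219S cells, labelled with a mutation at residue R219 of FOXA1 in the FOXA1_dTAG background, were compared with WT cells of the same background. The treatment label names dTAG or DMSO for the dTAG, WT and R219S libraries without saying which library received which, and the labels do not state whether any line is a clone or whether replicates were separate cultures. The p-values therefore measure only the spread between these libraries, which may be technical.

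FOXA1 is a forkhead pioneer factor: it opens chromatin for other transcription factors in the prostate luminal epithelium and, in the liver, at the genes of many plasma proteins. In hepatocytes the same genes are driven together with HNF1, HNF4 and C/EBP factors. Albumin carries fatty acids and hormones, apolipoproteins solubilise and route lipid particles, and complement, coagulation and inhibitor proteins make up much of the rest of plasma. Most are best known as liver products, while clusterin is also made by many epithelia.

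Library totals ran from 21.6 to 38.5 M counts. Levels are in CPM, the count scaled to library size. CPM given by library were scaled with the TMM factors of the comparison they stand in, so the same 0 h library has slightly different values in 2 comparisons; sums, means by group, ratios of summed levels and figures use the plain library total. FOXA1 mRNA was 298.5 and 304.8 CPM in shFOXA1 against 402.3 and 434.5 CPM in shCtrl. The R219S libraries held 703.3 and 681.2 CPM of FOXA1, and the WT libraries 1019 and 1032 CPM. By plain library total, the dTAG libraries held 168.8 and 166.4 CPM at 0 h, then 168.4 and 166.4 CPM at 1 h. At 24 h they held 207 and 199.3 CPM. All of these lay far below WT, which had 1021 and 1041 CPM on that scale. The dTAG and WT tables were counted separately, and their FOXA1 levels were not compared by a test. The dTAG system acts on the protein, which mRNA does not measure. The 11 prostate luminal markers, FOXA1 among them, summed to 2970 to 8960 CPM in every library and none was at 0. The 17 hepatocyte markers outside the list summed to 6.66 to 14.7 CPM, with 2 to 7 of them at 0. Leukocyte markers summed to 1.31 to 4.16 CPM, endothelial markers to 0 to 0.499 CPM and fibroblast markers to 16.9 to 20 CPM in the knockdown and dTAG libraries. In R219S and WT the fibroblast markers stood apart, at 231 and 238 CPM in R219S and 218 and 211 CPM in WT. The libraries thus carry prostate luminal markers, and no hepatocyte share was measured; in bulk RNA, fewer cells that express a gene and less RNA per cell cannot be told apart. The shFOXA1 libraries stood apart as a pair: their counts differed by 11.8 times the sampling variance (chi-square per degree of freedom), against 2.04 to 4.04 in the other pairs.

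In the liver, forkhead and HNF1 motifs lie just upstream of several of these genes. Of the 10 members that were called at least 4-fold lower in a main comparison, 6 had a promoter in the source used. The promoters of 4 of these are shown, and those of AFP and SLC22A10, which hold no forkhead match, are not. Each line holds the 250 bases upstream of the RefSeq start (GRCh38.p14), 5′ to 3′ on the gene's strand, with capitals marking the forkhead motif (TGTTTAC or TATTTAC) and the HNF1 half-site (GTTAAT), each searched on both strands.
ALB, chr4:73404037-73404286, plus strand: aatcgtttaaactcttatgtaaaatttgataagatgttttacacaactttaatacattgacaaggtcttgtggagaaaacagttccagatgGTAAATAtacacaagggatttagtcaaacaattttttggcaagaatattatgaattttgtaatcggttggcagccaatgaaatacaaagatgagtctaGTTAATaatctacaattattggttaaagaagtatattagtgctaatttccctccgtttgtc
APOH, chr17:66229416-66229665, minus strand: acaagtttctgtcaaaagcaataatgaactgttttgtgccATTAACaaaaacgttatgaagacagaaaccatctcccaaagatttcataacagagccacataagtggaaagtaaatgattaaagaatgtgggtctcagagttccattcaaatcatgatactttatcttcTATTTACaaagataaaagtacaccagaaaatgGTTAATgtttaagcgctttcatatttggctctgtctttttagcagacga
APOA5, chr11:116792421-116792670, minus strand: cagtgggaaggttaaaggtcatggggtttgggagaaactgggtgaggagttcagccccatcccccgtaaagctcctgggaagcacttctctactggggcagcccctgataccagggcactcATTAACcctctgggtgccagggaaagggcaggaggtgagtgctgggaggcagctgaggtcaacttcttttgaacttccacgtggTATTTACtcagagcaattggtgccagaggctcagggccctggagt
PZP, chr12:9208396-9208645, minus strand: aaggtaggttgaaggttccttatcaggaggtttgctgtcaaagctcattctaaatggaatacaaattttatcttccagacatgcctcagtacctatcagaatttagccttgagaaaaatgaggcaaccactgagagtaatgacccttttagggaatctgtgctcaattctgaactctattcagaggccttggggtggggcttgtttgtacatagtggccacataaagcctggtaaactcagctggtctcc

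The ALB window held a forkhead match 159 to 153 bases before the start and an HNF1 half-site 61 to 56 bases before it. The APOH window held a forkhead match 81 to 75 bases upstream between HNF1 half-sites at 210 to 205 and 49 to 44. In APOA5, of whose 2 RefSeq windows the first is shown, the forkhead match lay 45 to 39 bases and the HNF1 half-site 129 to 124 bases before the start. The PZP window held neither. Of the windows not shown, that of AFP held an HNF1 half-site 132 to 127 bases before the start, and that of SLC22A10 held neither. The remaining forkhead matches among the members were in APOA2 and FGB, which stayed under 20 summed counts everywhere. Over the 35116 windows of all genes, 5.27% held a forkhead match and 6.23% an HNF1 half-site. Among the 28 windows of the 19 members found in the table, 6 and 9 did, from 5 and 8 genes. The HNF4 motif CAAAGTCCA stood in 2 of the 28 member windows, from 2 genes, and in 0.325% of all windows. The C/EBP motif TTGCNNAA stood in 7 member windows, from 6 genes, and in 9.05% of all windows. A member can have several windows, so gene and window shares are not on the same footing, and a match is a description of letters, not of binding.

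Some members reached 20 summed counts in every table, some in part of the tables and some in none. No background level was measured. Many values were small: 18 members reached a sum of 20 counts in the knockdown table, 15 in the 1 h table, 14 in the 24 h table and 15 in the R219S table. The members that reached it in all 4 tables numbered 10: ALB, APOA5, APOE, CLU, SERPINC1, C3, C5, A2M, TF and CPS1. GC, APOA1, APOH, FGL1, CFB, PZP, TTR, AFP, SLC22A10 and ORM2 reached it in some tables only. Another 10 stayed under 20 everywhere, and they include the fibrinogen chains FGA, FGB and FGG, the lipoprotein structural genes APOA2, APOB and APOC3, the protease inhibitors SERPINA1 and SERPINA3, the acid glycoprotein gene ORM1 and the fetuin gene AHSG. Nearest to the limit, C3 had 27 summed counts in the knockdown table and ORM2 had 16. In the R219S table the sums nearest the limit were 29 for ORM2 and 17 for APOA1.

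The level of ALB differed widely between experiments. Relative to library totals it averaged 43 ± 35.2 CPM in shFOXA1 and 461 ± 13.9 CPM in shCtrl. In the dTAG cells it averaged 5.02 ± 0.694 CPM at 0 h, 4.54 ± 0.221 CPM at 1 h and 1.99 ± 0.257 CPM at 24 h, and it averaged 3.23 ± 0.291 CPM in R219S and 25.2 ± 0.205 CPM in WT (SD, n = 2 each). These tables were counted separately and their levels were not tested against each other. Per kilobase of exon, ALB ranked first among the members in shCtrl at 137 ± 4.17 CPM per kilobase, above CLU at 40.2 ± 1.45. CLU, a secreted chaperone found on plasma lipoproteins, ranked first in the other 6 groups, at 249 CPM per kilobase in the 0 h libraries and 49 in WT. C5, the complement component that starts the terminal pathway, was next after ALB and CLU in both knockdown groups, at 4.52 CPM per kilobase in shFOXA1 and 7.04 in shCtrl, and next after CLU in the dTAG groups, at 2.19 at 0 h. In the R219S and WT libraries APOE, the ligand by which remnant particles bind their receptors, came next after CLU at 5.62 CPM per kilobase in R219S and 11.1 in WT.

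**Figure D1:**
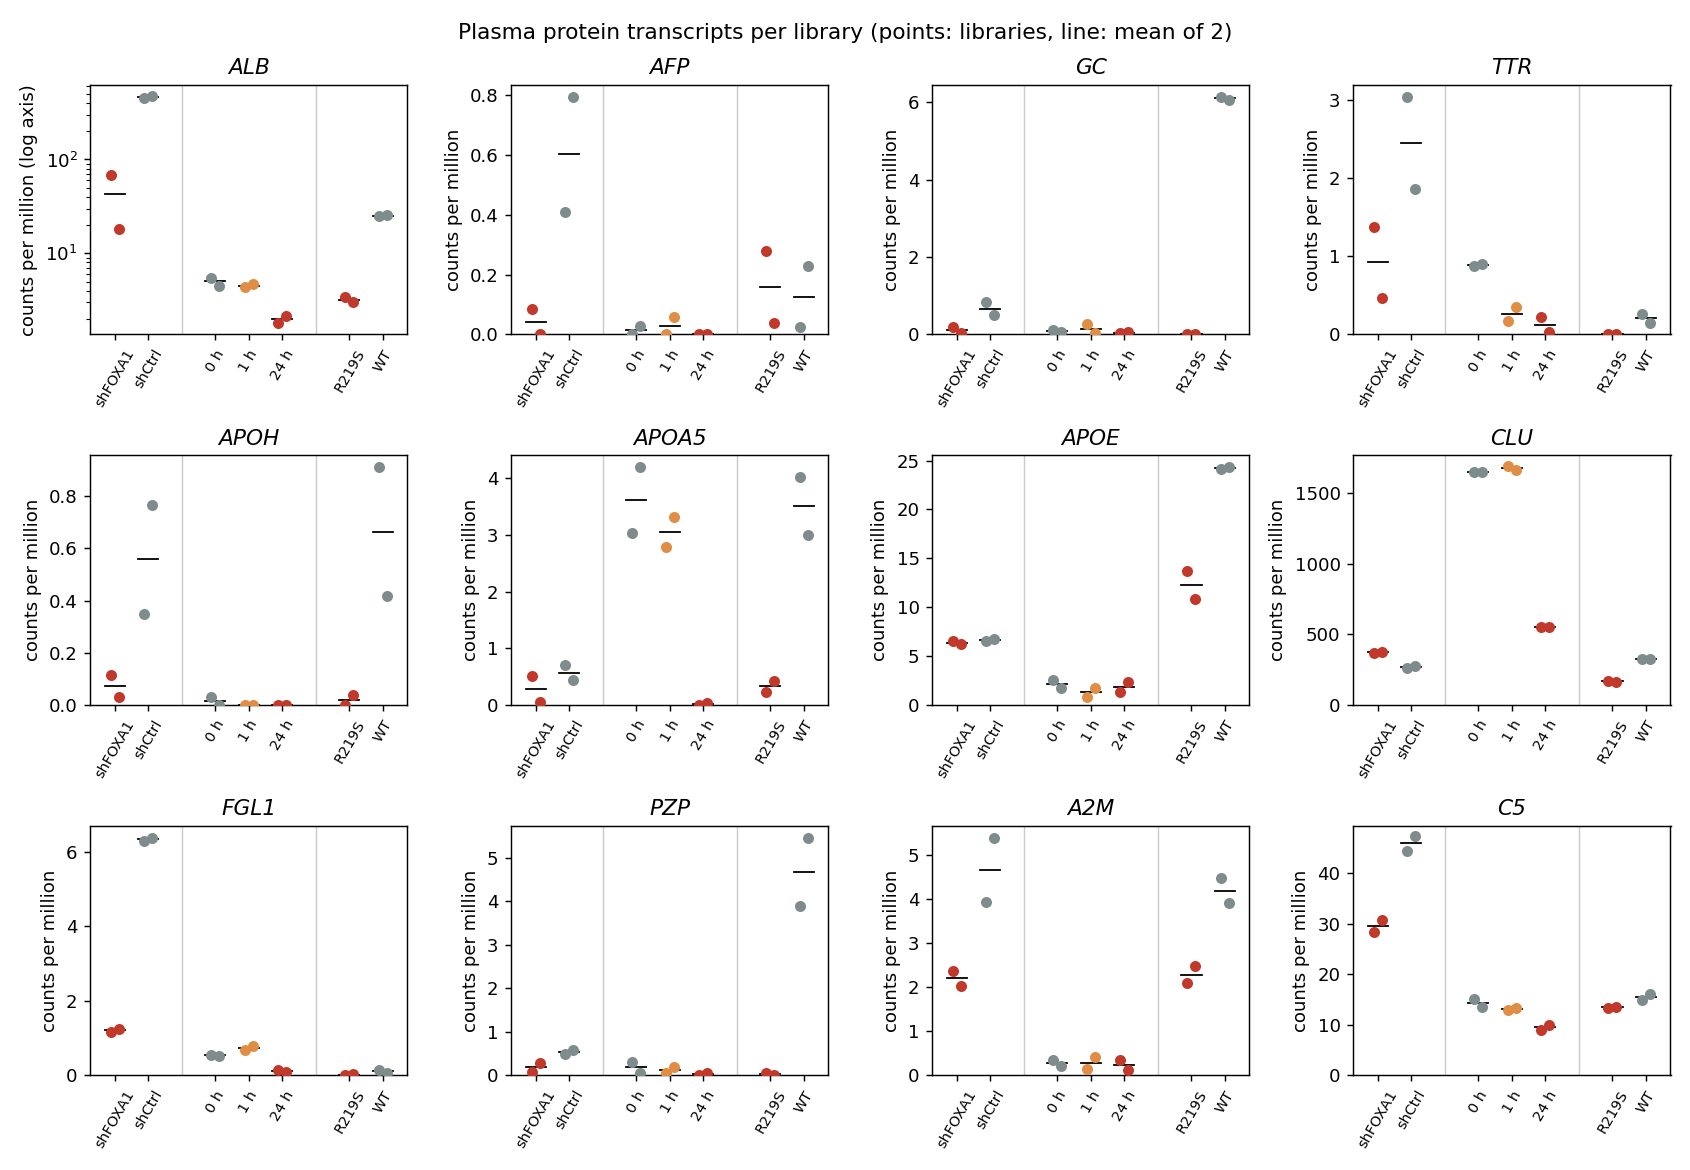
CPM of the library total (vertical axes, log scale for ALB, linear from 0 for the others) for 12 members in each of the 14 libraries, with a point per library and a line at the mean of 2. ALB spans 461 CPM in shCtrl to 1.99 CPM at 24 h, APOA5 is near 0 at 24 h, and GC and PZP are high in WT.

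The knockdown comparison asked which of these transcripts moved when FOXA1 mRNA was reduced. FGL1, A2M and C5 fell in shFOXA1, as did the low-count members AFP, APOH and GC, whereas CLU rose. Of the 30 members 16 passed the filter on low counts, and 7 of those were called (edgeR quasi-likelihood test, Benjamini-Hochberg adjusted p under 0.05), 1 higher and 6 lower. Of all 19128 genes tested 23.6% were called, 11.3% higher and 12.3% lower. GC, APOH, AFP and SERPINC1 passed the filter through the shCtrl libraries alone, so a fall was the direction in which they could differ. Of the other 12 members 1 was called higher and 3 lower, 33.3% of them, with a median log2 fold change of -0.78 against 0.01 over all genes. Among these 12, APOA5 and PZP reached the filter level in 1 shFOXA1 library and both shCtrl libraries, and TF in both shFOXA1 libraries and 1 shCtrl library. For these members 1 group alone sufficed to pass, and no share without them was computed.

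Among the carriers, ALB had 2372 and 617 counts in shFOXA1 against 15467 and 17208 counts in shCtrl. Both shFOXA1 libraries lay far below both shCtrl libraries, and they also differed from each other. The log2 fold change was -3.40 ± 0.89 (SE), and the edgeR adjusted p was 0.146, so ALB was not called. It was called with DESeq2 (adjusted p = 0.000522). The log2 fold change of ALB was -4.63 without shFOXA1 replicate 1 and -2.74 without replicate 2. Those fits no longer hold the spread between the 2 shFOXA1 libraries. AFP, the fetal counterpart of albumin encoded beside it, had 3 and 0 counts in shFOXA1 against 14 and 29 in shCtrl. Its summed level was 14.0-fold lower with a 95% counting interval of 4.47 to 70.4, and the edgeR adjusted p was 0.00773. GC, the vitamin D binding protein, had 7 and 1 counts in shFOXA1 against 29 and 18 in shCtrl (log2 -2.46 ± 0.67, adjusted p = 0.0190). TTR, which carries thyroxine and retinol binding protein, had 48 and 16 counts in shFOXA1 against 104 and 68 in shCtrl. The groups did not overlap, but TTR was not called (log2 -1.37 ± 0.46, adjusted p = 0.0693). It was called in 5 of 9 alternatives, among them DESeq2 and the absence of either shFOXA1 library, with edgeR and DESeq2 adjusted p-values from 6.69e-08 to 0.266. The iron carrier TF had 24 and 23 counts in shFOXA1 and 25 and 6 in shCtrl, which overlap.

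FGL1, a fibrinogen-like protein secreted by hepatocytes, had 41 and 43 counts in shFOXA1 against 216 and 233 in shCtrl. The replicates were close and FGL1 fell by 2.35 ± 0.20 on the log2 scale (adjusted p = 1.69e-05), a call kept in each of the 9 alternative settings tried. APOH, which binds anionic phospholipid and lipoproteins, had 4 and 1 counts in shFOXA1 against 12 and 28 in shCtrl (log2 -2.87 ± 0.73, adjusted p = 0.0136). Of the other apolipoproteins, APOE had 228 and 211 counts in shFOXA1 and 223 and 246 in shCtrl, a difference within the replicates (log2 -0.03, 95% interval -0.32 to 0.25). APOA5, which promotes hydrolysis of plasma triglyceride, had 18 and 2 counts in shFOXA1 and 24 and 16 in shCtrl, which overlap. CLU was 372 and 380 CPM in shFOXA1 against 256 and 271 CPM in shCtrl, higher by 0.51 ± 0.060 on the log2 scale (adjusted p = 0.000136).

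In the complement and inhibitor genes, 2 members fell. C5 was 28.5 and 31.2 CPM in shFOXA1 against 44.0 and 47.2 CPM in shCtrl (log2 -0.61 ± 0.082, adjusted p = 0.000316). A2M, the broad protease inhibitor alpha-2-macroglobulin, was 2.39 and 2.05 CPM in shFOXA1 against 3.90 and 5.36 CPM in shCtrl (log2 -1.06 ± 0.22, adjusted p = 0.00413). PZP, its pregnancy-associated paralog, had 3 and 10 counts in shFOXA1 against 17 and 21 in shCtrl and was not called (adjusted p = 0.0911). CPS1, which commits ammonia to the urea cycle, was 3.29 and 3.69 CPM in shFOXA1 and 3.06 and 4.08 CPM in shCtrl, with no call (95% interval -0.43 to 0.36). Leaving out shCtrl replicate 2 raised the edgeR adjusted p to 0.117 for AFP, 0.259 for APOH and 0.0732 for A2M, and left 4 members called. GC was not called when shCtrl replicate 1 (adjusted p = 0.177) or shFOXA1 replicate 2 (0.0571) was absent. Without shFOXA1 replicate 1 the log2 fold change was -7.40 for AFP, -4.07 for APOH and -4.31 for GC, and without shFOXA1 replicate 2 it was -2.74, -2.24 and -1.69. Reads of A2M and its antisense gene A2M-AS1 cannot be told apart, since no source used here states a strand setting. The same applies to FGL1 with AC087273.1 and AC087273.2 opposite it, and to APOA1 with APOA1-AS. On the same strand C3 overlaps GPR108, CFB overlaps C2 and APOE overlaps AC011481.3.

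Genes of the same pathways that are not members gave mixed counts in the knockdown, where 11.3% of all genes were called higher and 12.3% lower. Of 7 other apolipoproteins tested 1 rose and 2 fell, of 24 lipoprotein assembly, receptor and remodelling genes 6 rose and 4 fell, of 14 other coagulation factors 1 rose and 2 fell, and of 14 other complement genes 2 rose and 1 fell. Of 11 other acute phase and transport proteins 2 fell, among them AMBP, the precursor of alpha-1-microglobulin (log2 -0.82 ± 0.25). SERPINA10, an inhibitor of coagulation factor X, had 4 and 3 counts in shFOXA1 against 19 and 30 in shCtrl (log2 -2.70 ± 0.58, adjusted p = 0.00534), and APOF had 3 and 2 against 14 and 20. Of 16 liver-type transcription factors 3 rose and 3 fell, with PROX1 at -1.68 ± 0.57. In the interleukin-6 and STAT3 list SOCS3 rose and CEBPB fell (log2 -1.35 ± 0.14), and ARG2 of the urea cycle list fell by 1.54 ± 0.17. Of the prostate luminal markers 6 rose and 2 fell of 11, and FOXA1, the targeted gene, was among those that fell. Of 5 tested hepatocyte markers outside the list 1 rose and 1 fell. The part of these genes in the members' changes was not tested.

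**Figure D2:**
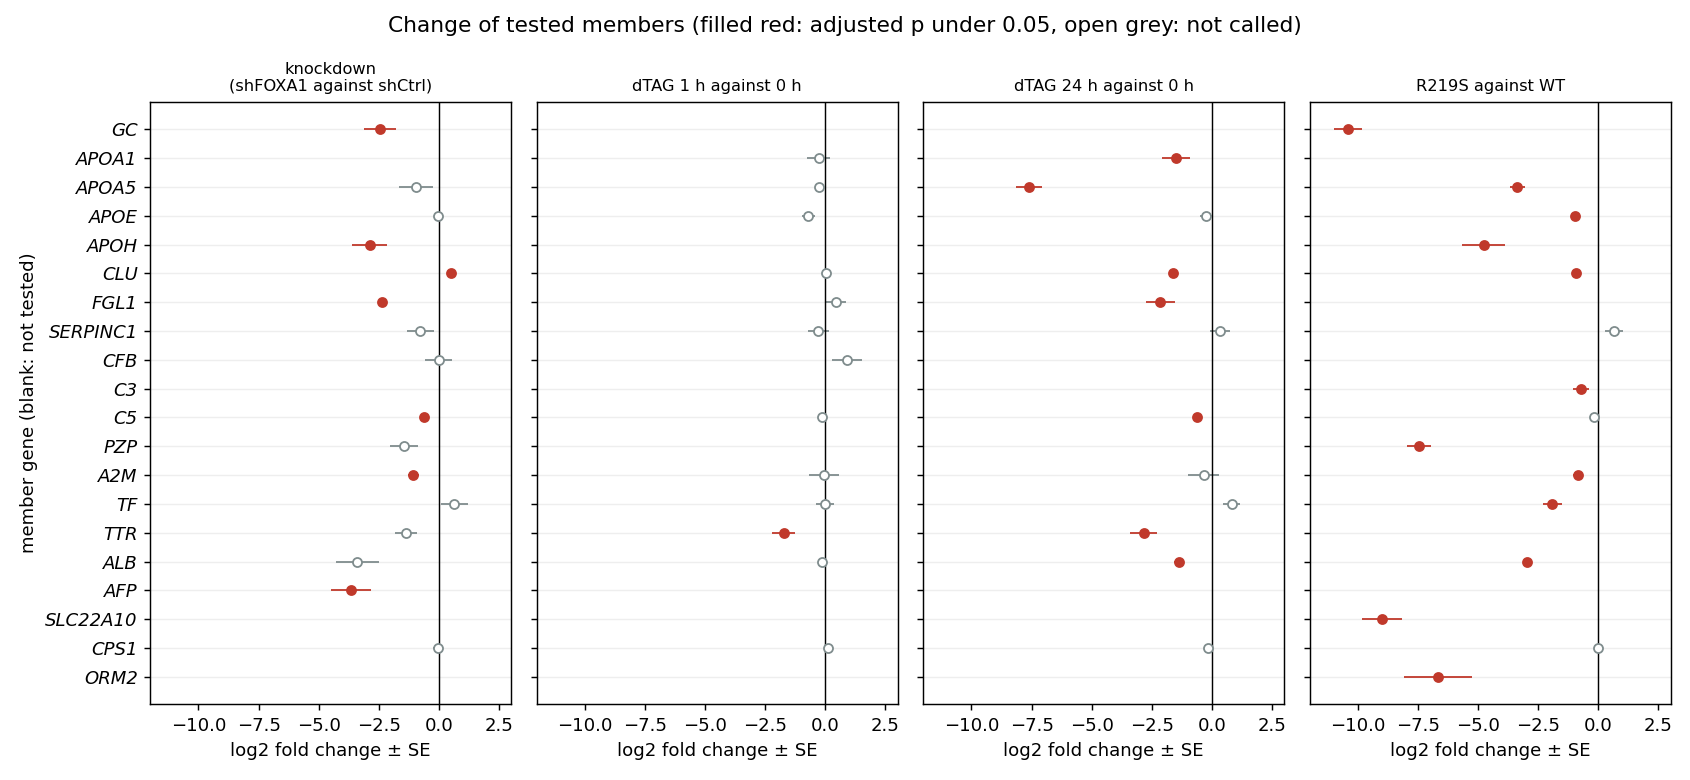
Log2 fold change ± SE (horizontal axes) of each member that passed the filter (rows) in the 4 main comparisons, with filled red points for an adjusted p under 0.05 and open grey points otherwise. Most called points lie left of 0, CLU in the knockdown lies right of it, and at 1 h TTR is the called member.

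In the dTAG course TTR was the member called at 1 h. Of 13 tested, 0 were called higher and 1 lower, against 19.8% of all 19397 genes called, 10.7% higher and 9.12% lower. At an unadjusted p under 0.05 the counts were 0 higher and 2 lower. DESeq2 called 0 in either direction, but it gave TTR no adjusted p. TTR reached the filter level in both 0 h libraries and 1 of the 1 h libraries, so the 0 h libraries alone sufficed to admit it. TTR had 6 and 12 counts at 1 h against 30 and 32 at 0 h (log2 -1.74 ± 0.48, edgeR adjusted p = 0.00416). All 4 values are small, and without the 1 h replicate 1 the adjusted p was 0.139 and 0 members were called. APOE had 28 and 60 counts at 1 h and 87 and 60 at 0 h, which overlap, and was not called (adjusted p = 0.0597). Its log2 fold change was -1.36 without the 1 h replicate 2 and -0.98 without the 0 h replicate 2. Each of those fits lacks the spread of 1 pair of libraries. CLU, at 1690 and 1659 CPM at 1 h and 1652 and 1652 CPM at 0 h, had a 95% interval of -0.03 to 0.07, and the interval for ALB was -0.45 to 0.16. CFB, a protease of the alternative complement pathway, passed the filter through the 1 h libraries alone and was not called.

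At 24 h CLU, ALB and C5 were lower than at 0 h, as were APOA5, TTR, FGL1 and APOA1. The second set passed the filter through the 0 h libraries alone, so a fall was the direction in which they could differ. Together 7 of 12 tested members were lower and 0 higher. Of all 19607 genes 46.9% were called, 22.1% higher and 24.8% lower. Of the 8 members that did not depend on the 0 h libraries for the filter 3 were called, or 37.5%, a share below that of all genes, and their median log2 fold change was -0.28 against 0.0056 over all genes. No member was called higher by DESeq2 either, while 1, TF, was higher at an unadjusted p under 0.05. The 0 h libraries are shared with the 1 h comparison, so the 2 sets of values are not independent. With no label for a vehicle group of the same duration, time in culture, the small molecule and loss of FOXA1 cannot be told apart.

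APOA5 showed the steepest course of the tested members. It had 104 and 149 counts at 0 h, 95 and 113 counts at 1 h, and 0 and 1 counts at 24 h. The summed level at 24 h was 233-fold lower than at 0 h, with a 95% counting interval of 41.5 to 9242 (adjusted p = 2.7e-13). The fitted log2 fold change was -6.75 without the 24 h replicate 1 and -9.95 without replicate 2, whose absence leaves 0 counts. CLU was 546 and 542 CPM at 24 h against 1673 and 1675 CPM at 0 h (log2 -1.62 ± 0.033, adjusted p = 5.65e-27), and its replicates differed little. ALB, at 1.78 and 2.14 CPM against 5.60 and 4.60 CPM, fell by 1.38 ± 0.19 (adjusted p = 2.64e-07). C5, at 8.96 and 9.83 CPM against 15.3 and 13.8 CPM, fell by 0.63 ± 0.10.

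Members of low count followed at 24 h. TTR had 7 and 1 counts at 24 h against 30 and 32 at 0 h (log2 -2.84 ± 0.58, adjusted p = 0.000134), with -4.73 when the 24 h replicate 1 was left out and -2.04 when replicate 2 was. FGL1 had 5 and 3 counts at 24 h against 19 and 19 at 0 h, and its call (log2 -2.14 ± 0.61, adjusted p = 0.00457) was lost without the 24 h replicate 2 (0.0881). APOA1, the structural protein of high density lipoprotein, had 7 and 5 counts at 24 h against 24 and 12 at 0 h. Its call (adjusted p = 0.0381) was lost without the 0 h replicate 1 (log2 -0.89, 0.493), the 24 h replicate 1 (0.109) or the 24 h replicate 2 (0.231). SLC22A10 had 0 counts in both 24 h and both 1 h libraries, and 4 and 2 counts at 0 h, too few for the test.

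Other members did not pass the test at 24 h. TF had 67 and 33 counts at 24 h and 38 and 21 at 0 h, which overlap (log2 0.83 ± 0.35, adjusted p = 0.0519). TF was nevertheless called higher in 6 of 9 alternatives, with adjusted p-values from 0.0018 to 0.747; DESeq2 and the absence of the 0 h replicate 2 or the 24 h replicate 1 left it without a call. TF shares genome positions with SRPRB and the pseudogene TFP1 on the same strand, so its counts are uncertain. CPS1 was 8.46 and 8.24 CPM at 24 h and 8.73 and 9.69 CPM at 0 h, with a 95% interval of -0.36 to 0.08. SERPINC1, the antithrombin gene, had 33 and 22 counts at 24 h and 31 and 15 at 0 h. APOE had 44 and 75 counts at 24 h and 87 and 60 at 0 h, again overlapping.

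Between 1 h and 24 h, in a joint fit of the 6 dTAG libraries, 7 of 13 tested members were called, 1 higher and 6 lower, where 45.7% of 20027 genes were called, 21.2% higher and 24.5% lower. APOA5, with 0 and 1 counts at 24 h, and FGL1, with 5 and 3, passed the filter through earlier libraries. A fall was therefore the direction in which they could differ. No share without such members was computed for this fit. CLU changed by log2 -1.64 ± 0.028, APOA5 by -7.34 ± 0.54, ALB by -1.23 ± 0.19, FGL1 by -2.56 ± 0.58 and C5 by -0.50 ± 0.10. TTR, the member called at 1 h, had a further change of -1.10 ± 0.72 that did not pass (adjusted p = 0.221). TF, higher at 24 h than at 1 h by 0.83 ± 0.34 (adjusted p = 0.0431), and CPS1, with a change of -0.27 ± 0.11 (adjusted p = 0.0465), were near the threshold. TF lost its call without either 1 h library (adjusted p = 0.16 and 0.109) or the 24 h replicate 1 (log2 0.22, 0.744), and also with DESeq2, by which 0 members were higher. CPS1 lost its call without the 1 h replicate 1 (log2 -0.15, 0.451), the 24 h replicate 1 (0.0905) or the 24 h replicate 2 (0.15). With RLE size factors, DESeq2, no count filter and the minimum of 1 CPM it was lost as well, in 7 of 11 alternatives in all.

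**Figure D3:**
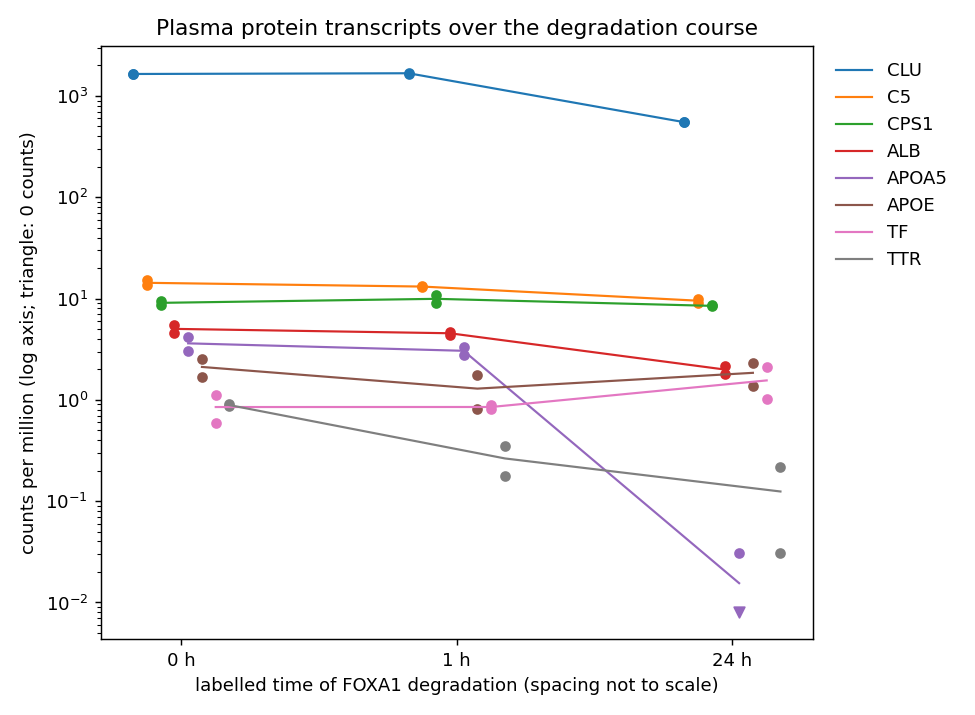
CPM of the library total (vertical log axis) at the labelled 0 h, 1 h and 24 h of FOXA1 degradation for 8 members, with a point per library, lines through the means of 2, and a triangle at the base for a library with 0 counts. APOA5 is level from 0 h to 1 h and near 0 at 24 h, CLU and ALB are lower at 24 h, and the CPS1 means lie between 8.47 and 9.94 CPM.

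Related genes outside the list also moved at 24 h, where 22.1% of all genes were called higher and 24.8% lower. Of 17 other coagulation factors tested 2 rose and 4 fell, and SERPIND1, the heparin cofactor, had 0 and 8 counts at 24 h against 80 and 60 at 0 h. Of 11 other acute phase and transport proteins 2 rose and 4 fell, with AMBP at log2 -2.40 ± 0.31 and the lipoprotein-bound esterase gene PON1 at -2.27 ± 0.15. Of 8 other apolipoproteins 2 rose and 3 fell, with APOD at -2.23 ± 0.17, and of 22 lipoprotein assembly genes 7 rose and 6 fell, with LPL, the lipase that APOA5 promotes, higher by 1.76 ± 0.034. Of 15 other complement genes 4 rose and 2 fell, and in the urea cycle list 3 of 7 rose and 2 fell. Among 15 liver-type transcription factors 4 rose and 6 fell: HNF4G fell by 1.24 ± 0.099, and CEBPA had 16 and 37 counts at 24 h against 0 and 5 at 0 h. In the interleukin-6 and STAT3 list, whose pathway drives the acute phase response in liver, 7 of 10 rose and 0 fell at 24 h (0 lower by DESeq2 and at an unadjusted p under 0.05), with CEBPB at 1.64 ± 0.087. At 1 h, where 10.7% of all genes were called higher and 9.12% lower, 3 rose and 1 fell of the 10 interleukin-6 genes. Of 13 liver-type factors 1 rose and 3 fell. Of 18 coagulation factors 0 were called by edgeR or DESeq2, with 1 higher at an unadjusted p under 0.05. Of the hepatocyte markers outside the list, 1 of 7 fell at 1 h and 2 of 7 at 24 h; luminal markers went both ways at 24 h, 7 higher and 4 lower of 11. Their part in the members' changes was not tested.

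In R219S cells ALB, APOE, CLU, APOA5, TF, A2M and C3 were lower than in WT. Of 15 tested, 12 were called lower and 0 higher, where 62.1% of all 13990 genes were called, 30.5% higher and 31.6% lower. No member was higher by DESeq2 or at an unadjusted p under 0.05. GC, APOH, PZP, SLC22A10 and ORM2 passed the filter through the WT libraries alone, so a fall was the direction in which they could differ. Of the other 10 members 7 were called lower, 70% of them, with a median log2 fold change of -0.90 against 0.0034 over all genes. Among these 10, APOA5 and TF reached the filter level in 1 R219S library and both WT libraries. The WT libraries alone thus sufficed to admit them, and no share without them was computed.

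Several members were at or near 0 in R219S. GC had 0 and 0 counts in R219S against 236 and 160 in WT, at least 96.4-fold lower by a floor of 3 counts over the group. SLC22A10, a liver gene of the organic anion transporter family, had 0 and 0 counts in R219S against 93 and 55 in WT, at least 36.0-fold lower. PZP had 1 and 0 counts in R219S against 150 and 144 in WT, 215-fold lower with a 95% counting interval of 38.3 to 8512. APOH had 0 and 1 counts in R219S against 35 and 11 in WT, 33.6-fold lower with an interval of 5.74 to 1356. ORM2, an acid glycoprotein of the acute phase nearly identical in sequence to ORM1, had 0 and 0 counts in R219S against 15 and 14 in WT, at least 7.06-fold lower. The mean WT levels of GC, SLC22A10 and PZP, 6.10, 2.25 and 4.68 CPM, stood beside 0.669, 0.140 and 0.535 CPM in shCtrl and 0.0864, 0.0864 and 0.189 CPM in the 0 h libraries, across tables that were not tested against each other. APOH and ORM2 did not pass the filter without WT replicate 1. The fitted log2 fold change of PZP was -10.1 without R219S replicate 1 and -6.48 without replicate 2, and that of APOH was -4.03 and -7.34. SLC22A10 lies opposite SLC22A24 and SLC22A25, whose reads could be counted with it.

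Members that both groups expressed also fell. ALB was 3.46 and 3.04 CPM in R219S against 25.0 and 25.1 CPM in WT (log2 -2.95 ± 0.11, adjusted p = 1.99e-103). APOE was 13.8 and 10.9 CPM in R219S against 24.1 and 24.1 CPM in WT (log2 -0.97 ± 0.085), and CLU was 170 and 166 CPM against 322 and 323 CPM (log2 -0.94 ± 0.040). APOA5 had 5 and 11 counts in R219S against 155 and 79 in WT, 10.7-fold lower (log2 -3.37 ± 0.32, adjusted p = 1.47e-23). TF had 10 and 8 counts in R219S against 48 and 46 in WT (log2 -1.91 ± 0.39). A2M had 45 and 64 counts in R219S against 172 and 103 in WT, and fell by 0.86 ± 0.19 on the log2 scale of normalised levels (adjusted p = 2.51e-05). C3, the convergence point of the complement pathways, had 21 and 18 counts in R219S against 49 and 40 in WT and was near the threshold (log2 -0.72 ± 0.33, adjusted p = 0.0459). That call was lost without WT replicate 1 (adjusted p = 0.078), WT replicate 2 (0.194) or R219S replicate 2 (0.336), and with DESeq2 (0.261), no count filter (0.0576) or the replicate number as a block (0.0645).

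C5, SERPINC1 and CPS1 did not pass the test in R219S. C5 was 13.5 and 13.6 CPM in R219S and 14.9 and 15.9 CPM in WT (log2 -0.18, 95% interval -0.36 to 0.00048). CPS1 was 13.2 and 14.0 CPM in R219S and 13.4 and 14.1 CPM in WT, with a 95% interval of -0.19 to 0.17. SERPINC1 had 27 and 24 counts in R219S and 24 and 21 in WT, and with the smaller R219S libraries that is log2 0.64 ± 0.36 (adjusted p = 0.108). TTR, at 0 and 0 counts in R219S and 10 and 4 in WT, and FGL1, at 0 and 1 against 6 and 2, were under 20 counts and not tested.

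Genes of the related lists went both ways in R219S, where 30.5% of all genes were called higher and 31.6% lower. Of 17 other complement genes 6 rose and 3 fell. Of 11 other acute phase and transport proteins 3 rose and 5 fell, with PON1 at log2 -3.62 ± 0.22 and ITIH1, a heavy chain of the inter-alpha inhibitors, at 0 and 1 counts in R219S against 19 and 14 in WT. Of 6 other apolipoproteins 3 fell and 0 rose (1 higher at an unadjusted p under 0.05 and 0 by DESeq2), with APOD at -5.31 ± 0.30, and of 21 lipoprotein genes 5 rose and 9 fell. Of 12 other coagulation factors 5 rose and 5 fell, with F3, tissue factor, at -1.95 ± 0.066. In the interleukin-6 list 5 rose and 4 fell of 10, and in the urea cycle list 2 rose and 3 fell of 7. Of 14 liver-type transcription factors 2 rose and 6 fell, with FOXA3 at -1.45 ± 0.45. Of 2 uptake transporters tested, SLCO2B1 fell (-3.58 ± 0.68). Luminal markers moved as well, 2 higher and 8 lower of 11, with TMPRSS2 at -4.89 ± 0.16, and of 7 hepatocyte markers outside the list 2 rose and 3 fell. Of the 5 fibroblast markers 3 were tested, of which 2 rose and 1 fell; the matrix proteoglycan gene LUM made up most of their summed level, at 179 and 185 CPM in R219S against 171 and 165 CPM in WT. Their part in the members' changes was not tested.

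Counted over the 4 main comparisons, 9 members were lower in 2 of them (GC, APOA5, APOH, CLU, FGL1, C5, A2M, TTR and ALB), 8 in 1 of them, and 0 in 3 or 4. These counts come from edgeR and follow the filters above, so a member that did not pass the filter of a comparison had no chance of a call there. Over all genes tested, 12.3% were called lower in the knockdown, 9.12% at 1 h, 24.8% at 24 h and 31.6% in R219S. How many of all genes were lower in 2 comparisons was not counted. The 2 calls of TTR, at 1 h and 24 h, share the 0 h libraries. CLU was the member called in opposite directions, higher in shFOXA1 and lower at 24 h and in R219S. The difference between the 24 h change and the knockdown change was tested in a fit of those 8 libraries, which share none. In it 2 of 17 tested members were called, both lower, where 22.7% of 20795 genes were called, 9.45% higher and 13.2% lower. CLU differed by log2 -2.12 ± 0.067 (adjusted p = 3.65e-15) and APOA5 by -6.65 ± 1.3 (adjusted p = 0.00123), the second without a call when shFOXA1 replicate 1 was left out (log2 -4.43, adjusted p = 0.064) and at -9.05 without the 24 h replicate 2. For ALB the difference was 2.03 ± 1.6 (adjusted p = 0.461), with the spread of the shFOXA1 libraries in it. The difference was log2 3.27 without shFOXA1 replicate 1 and 1.37 without replicate 2, each time a larger fall in the knockdown. Neither of those fits holds the spread between the 2 shFOXA1 libraries. For C5 the difference was -0.01 with a 95% interval of -0.25 to 0.24. R219S was set beside these comparisons without a test, because its table is named by symbol and was counted separately.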

How the data were processed

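RNA sequencing counts of 14 libraries of 22Rv1 cells were taken as deposited. The deposited tables hold raw counts per gene, not normalized, in whole numbers. The authors' tools, per the submitters' processing notes, were STAR, featureCounts and DESeq2 with build hg19; versions, annotation and strand setting are not given in the sources used here. Ensembl identifiers were named through GENCODE 29 and a gene name table (52337 of 57904 in the knockdown table, 52338 of 57905 in each dTAG table); the R219S table gives symbols, of which 26 had become dates, holding 0.172% to 0.186% of a library's counts. The 0 h counts were identical in both dTAG tables for all 57905 features. Per-sample columns left unused numbered 0.

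The members, the related gene lists and the tests were chosen with earlier results of these data known. All members are accounted for; those called are given by library, and from each related list up to 2 of the largest called rises and falls in a comparison could be named. Some genes of the related lists are not reported here. CPM, exon-union kilobases, promoters (RefSeq, GRCh38.p14, 19 of 30 members matched) and motif matches were computed here with Python 3.11.15 and pandas 2.3.3. Coordinates are those of the promoter table and not of the counts.

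The 4 libraries of a main comparison were fitted by themselves with edgeR 4.0.16 (R 4.3.3), after filterByExpr and TMM, with robust dispersions and glmQLFTest over all genes passing the filter and Benjamini-Hochberg adjustment; adjusted p-values are edgeR's unless DESeq2 (1.42.0) is named. The script was tested on simulated data. A joint fit of the 6 dTAG libraries gave 24 h against 1 h, and a fit of 8 libraries gave the 24 h change minus the knockdown change. The SE was taken as log2 fold change divided by root F, and 95% intervals are approximate. Group ratios against 0 counts use a floor of 3 counts over the group, and ratios with 1 to 3 counts have exact 95% binomial-based intervals; both cover counting error only. Alternatives were RLE size factors, DESeq2, no count filter, a minimum of 1 CPM in 2 libraries, each library left out, the replicate number as a block, and other count minimums for description.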

Additional observations from a re-analysis of the deposited data

Results flagged for a closer look

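A difference between 2 experiments drew attention for 2 members. CLU, the clusterin gene, had a 24 h change that was lower than its knockdown change by log2 -2.12 (edgeR interaction test), and in neither experiment did its groups overlap: 372 and 380 CPM in shFOXA1 against 256 and 271 CPM in shCtrl, and 546 and 542 CPM at 24 h against 1673 and 1675 CPM at 0 h. APOA5 differed by log2 -6.65, from 18 and 2 counts in shFOXA1 and 24 and 16 in shCtrl beside 0 and 1 counts at 24 h and 104 and 149 at 0 h. The starting levels of both genes differed between the experiments (mean APOA5 0.569 CPM in shCtrl and 3.61 CPM at 0 h), and the part of that in the difference was not tested.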

How the results depend on the processing

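The number of members called was recomputed under each alternative. In the knockdown it was 7, and it was 4 with a minimum of 1 CPM in 2 libraries, which leaves 8 members to test, and 4 to 10 with a library left out. At 1 h it was 1, against 0 with DESeq2, 0 with the minimum of 1 CPM, which leaves 6 members to test, and 0 to 2 with a library left out. The difference of the 24 h and knockdown changes had 2, and 2 to 4 with a library left out. The remaining counts stayed within 1.5 times of their value: 5 to 8 at 24 h, 9 to 12 in R219S and 5 to 7 for 24 h against 1 h with a library left out. Where an alternative tests the same members, the cause was not tested. Where a group keeps a single library, that library is assumed to vary like the others. The 36 called member values were recomputed 334 times: 299 kept direction and call, 35 kept direction without the call, and 0 reversed. DESeq2 gave no adjusted p for AFP, APOH and GC in the knockdown, TTR at 1 h, or FGL1 and APOA1 at 24 h. The replicate numbers are shared by the groups, but same-numbered libraries did not deviate together (correlations -0.0156 to 0.0339), so they were not taken as pairs. With the replicate number as a block the counts were 8 in the knockdown (TTR added), 2 at 1 h (APOE added), 8 at 24 h (TF added), 11 in R219S (C3 lost), 7 for 24 h against 1 h and 2 for the difference. The 24 h table had 14 members with a sum of 20 or more and 9 with a sum of 50 or more. With 2 libraries a group and counts often under 20, depth limits which small changes in weakly expressed members could pass the test.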
